A study of Mus musculus with 16 samples.

Results

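The hepatic carboxylesterases are the mouse liver enzymes of the Ces1, Ces2 and Ces3 subfamilies, described here in the livers of old male and female mice with or without the glucagon receptor gene Gcgr in hepatocytes. The members are the 10 genes Ces1b, Ces1c, Ces1d, Ces1e, Ces1f, Ces1g, Ces2a, Ces2c, Ces3a and Ces3b, out of 41079 genes in the counts table. They were picked by gene name, with the comparison of knockout and control livers in each sex already known. Their values in those comparisons are therefore given as a description. Where a member is said to be past the threshold there, this reports the output of a fit across all genes and is no test of the member, and nothing is supported with it. The comparison of control females with control males is not part of the rule for that choice, and it is given with its test. It shares control mice with both comparisons, and earlier results of these data were known, so its test is not free of the choice.

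Liver RNA of 16 mice was sequenced to ask how loss of hepatic glucagon signalling acts in aged animals of each sex. All mice were on the C57BL/6J background, 20 to 22 months old, and carried Gcgr alleles with loxP sites around exons 6 to 12. The LKO groups, 4 males and 4 females, also carried a Cre transgene driven by the albumin promoter, which acts in hepatocytes and from early life on. The CRE- groups, 4 males and 4 females, lacked the transgene and kept the receptor. Liver cells of LKO mice in which Cre has not acted keep undeleted alleles, and which cell types these are was not measured.

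Carboxylesterases are serine hydrolases of the endoplasmic reticulum that split ester and amide bonds in drugs, prodrugs, pesticides and lipids. In mice the family has grown by tandem duplication into clusters of like genes, and the liver makes several of them in large amounts. Some act on stored triglyceride and feed its fatty acids into very low density lipoprotein (VLDL), some are secreted into plasma, and others are known mainly for the compounds that they hydrolyse.

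The values are read counts per gene, and between 33268424 and 56488920 reads per library were assigned to genes. The median was 44288170 reads in male CRE-, 38475729.5 in male LKO, 46840916 in female CRE- and 37348750.5 in female LKO livers. Levels are given as CPM, reads relative to the library total, with totals scaled by TMM (the trimmed mean of M values, which sets the bulk of genes equal between libraries). Where genes are compared with each other, CPM was divided by gene length in kilobases (RPKM). Groups are given as the mean ± SD of 4 mice. A difference is given as a log2 fold change, where -1 means a halving, with its standard error (SE) from edgeR's quasi-likelihood fit of all 16 libraries. A gene is called past the threshold when the p of that fit, adjusted by the method of Benjamini and Hochberg over the 16742 genes with enough counts to be tested (the edgeR adjusted p), is under 0.05. All 10 members passed the filter on low counts.

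One library stood apart before any comparison. Male LKO replicate 1 had the Y-linked Ddx3y at 58.0 CPM and Uty at 14.6 CPM, with 2 counts of the female transcript Xist, so it carried the transcripts of a male. Yet 6 of 8 genes known to be higher in male liver were below all 7 other males in it, and 8 of 10 genes known to be higher in female liver were above all 7. These lists were chosen after values of the library had been seen. The urinary protein gene Mup20 was at 232.5 CPM, against 10149 to 18454 in the other male LKO livers. The sulfotransferase gene Sult2a1 was at 116 CPM, against at most 0.267 in the other males and 721 to 1028 in female CRE- livers. The reason is not known, and the male LKO fold changes of single members are given with and without this liver.

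The members spanned a wide range of levels. Over the 16 livers Ces1c, which encodes an esterase secreted into mouse plasma, had a mean of 1710.3 RPKM and ranked 41 among the genes tested. Ces1d, the triacylglycerol hydrolase that mobilizes stored fat for VLDL, followed at 535 RPKM, and Ces3a at 326 RPKM. Ces1f, another triacylglycerol hydrolase, was at 225 RPKM and Ces1g, an esterase linked to the limits of hepatic fat storage and secretion, at 182 RPKM. Ces2a, a drug-hydrolysing enzyme, was at 168 RPKM and Ces1e, known as egasyn for its binding of beta-glucuronidase in the endoplasmic reticulum, at 94.5 RPKM. Ces1b was at 49.4 RPKM and Ces3b at 37.3 RPKM, while Ces2c, an acylglycerol hydrolase of liver and intestine, had the lowest level, 8.64 RPKM and rank 4272.

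The order of the members by RPKM differed among the groups. In male CRE- livers it was Ces1c (1261), Ces3a (542), Ces1d (468), Ces1f (262), Ces2a (178), Ces1g (129), Ces1e (125), Ces3b (71.8), Ces1b (29.0) and Ces2c (10.3). In that order the values of single mice overlapped between Ces3a and Ces1d, between Ces2a and Ces1g and between Ces1g and Ces1e, and all other neighbours were separate. In male LKO livers it was Ces1c (1592), Ces1d (644), Ces3a (537), Ces1f (277), Ces2a (224), Ces1g (187), Ces1e (91.6), Ces1b (52.7), Ces3b (38.1) and Ces2c (6.999), and the genes from Ces1d to Ces1g each overlapped the next, as did Ces1b and Ces3b. Without male LKO replicate 1, Ces3a (698) stood above Ces1d (606), as in male CRE- livers, and of the neighbours in that order Ces1b and Ces3b alone overlapped. In female CRE- livers it was Ces1c (2324), Ces1d (596), Ces1f (247), Ces1g (243), Ces2a (174), Ces3a (173), Ces1e (121), Ces1b (59.7), Ces3b (35.6) and Ces2c (10.7), with overlaps from Ces1f to Ces1e. In female LKO livers it was Ces1c (1665), Ces1d (433), Ces1g (169), Ces1f (112), Ces2a (96.2), Ces1b (56.4), Ces3a (50.7), Ces1e (40.4), Ces2c (6.57) and Ces3b (3.78), and every neighbour from Ces1g on overlapped the next. Ces1c and Ces2c held the ends of the order in 3 groups, and in female LKO livers Ces3b stood last.

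**Figure D1:**
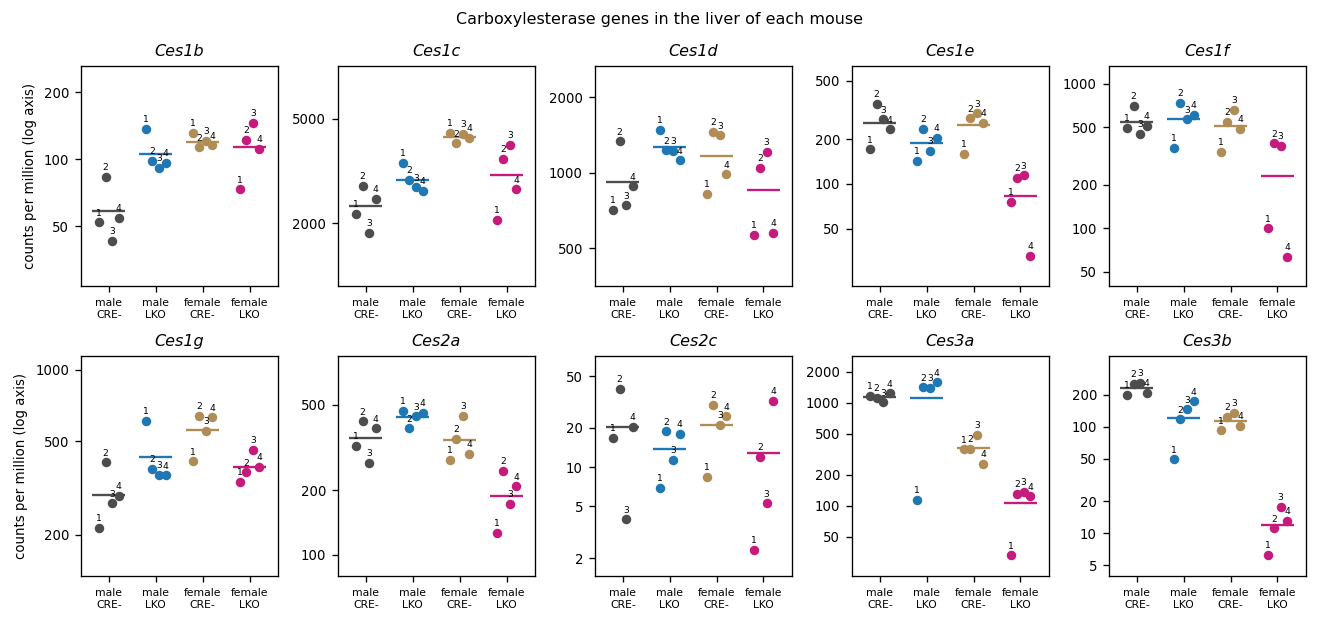
Level of each member in every liver, in CPM on a log axis, for male CRE-, male LKO, female CRE- and female LKO mice; points are mice numbered by replicate and lines are group means. Ces3b of the 4 female LKO livers lies between 6.29 and 17.7 CPM, below all 12 others, and Ces3a of male LKO replicate 1 lies at 115 CPM, far from the 1386 to 1583 CPM of replicates 2 to 4 of its group.

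In control livers, Ces1b was at 52.1, 83.3, 42.9 and 54.5 CPM in male CRE- replicates 1 to 4 and at 131, 113, 121 and 115 CPM in female CRE- replicates 1 to 4. Every female was above every male, and the closest pair of mice from the groups was male replicate 2 and female replicate 2. Ces1b was 2.06-fold higher in females (log2 fold change 1.04, SE 0.228, 4 of 4 females above all males, edgeR adjusted p = 0.0390). It was the 1 member past the threshold in this comparison, where 0.92% of all genes tested were called, 0.412% higher and 0.508% lower. The call held without male CRE- replicate 2, the highest male, where the edgeR adjusted p was 0.0109. It was lost without any other mouse: the adjusted p was 0.153, 0.139 and 0.0888 without male CRE- replicates 1, 3 and 4, and 0.106, 0.0962, 0.0872 and 0.119 without female CRE- replicates 1 to 4. In these fits its log2 fold change was between 0.91 and 1.27. The call was also lost when at least 10 counts were required in every library and with replicate number as a block.

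Ces1c and Ces1g showed the same separation in control livers without passing the threshold. Ces1c was at 2177, 2777, 1840 and 2483 CPM in male CRE- replicates 1 to 4 and at 4427, 4037, 4395 and 4244 CPM in female CRE- replicates 1 to 4. Even the lowest female was far above the highest male, and Ces1c in females stood at 0.88 on the log2 scale (SE 0.213, edgeR adjusted p = 0.0653). Ces1g was at 214, 406, 273 and 293 CPM in males and at 410.3, 637, 552 and 629 CPM in females, so that the lowest female lay just above the highest male. For Ces1g the log2 fold change was 0.91 (SE 0.233), with an edgeR adjusted p of 0.0845, and without male CRE- replicate 2 it was 1.10 and past the threshold (edgeR adjusted p = 0.0419). Higher values in all females than in any male were found in 3 members, beside 4.37% of all genes tested. DESeq2 called 3 members higher in females, Ces1b, Ces1c and Ces1g, and 1 lower, Ces3a, beside 1.22% of all genes higher and 1.47% lower.

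The Ces3 pair ran the other way in control livers. Ces3a was at 1170.1, 1123, 1012 and 1229.9 CPM in male CRE- replicates 1 to 4 and at 353, 357, 486 and 255 CPM in female CRE- replicates 1 to 4. The lowest male was above the highest female by a wide margin. Ces3a was 3.12-fold lower in females (log2 fold change -1.64, SE 0.551, 4 of 4 females below all males), not past the threshold (edgeR adjusted p = 0.217). Ces3b was at 198, 252, 256 and 207 CPM in male CRE- mice and at 92.6, 124, 134 and 102 CPM in female CRE- mice. Again no mouse of a sex reached the range of the other, and Ces3b was 2.02-fold lower in females (log2 fold change -1.01, SE 0.325, edgeR adjusted p = 0.194). All females were below all males in these 2 members, beside 3.17% of all genes tested. On the library total without TMM the median of all genes tested shifted by -0.16 in this comparison. Ces1b, Ces1c, Ces1g, Ces3a and Ces3b still did not overlap between the sexes there, and no share over all genes is given for that scale. For Ces1d, Ces1e, Ces1f, Ces2a and Ces2c the sexes overlapped, with log2 fold changes between -0.09 and 0.35, and the median of the 10 members was 0.01, beside -0.01 over all genes tested. That median moved with single mice, to 0.36 without male CRE- replicate 2 and to -0.09 without male CRE- replicate 3. At an unadjusted p under 0.05 there were 5 members, beside 12.7% of all genes tested. Over all genes this comparison called 154, and 68 and 74 without male CRE- replicates 1 and 3, and 82, 71, 90 and 71 without female CRE- replicates 1 to 4.

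In female LKO livers all 10 members had a log2 fold change below 0 relative to female CRE- livers, with the exception of Ces1b at 0.10 when female LKO replicate 1 was left out and on the plain library total, where the log2 ratio of its group means was 0.18. Of all genes tested, 46.9% were below 0. The median of the members was -0.78, beside 0.04 over all genes tested. Past the threshold were 3 members, Ces3b, Ces1e and Ces2a, all lower and none higher, beside 4.24% of all genes tested that were called, 2.15% lower and 2.09% higher. In 5 members, Ces1c, Ces1e, Ces2a, Ces3a and Ces3b, every LKO female was below every CRE- female, beside 6.42% of all genes tested, and in no member was every LKO female above, beside 5.2%. On the library total without TMM, an alternative added after seeing the data, the median of all genes tested was 0.269 higher in this comparison. There Ces1e, Ces3a and Ces3b still did not overlap, while Ces1c and Ces2a did. The share of all genes without overlap was not taken on that scale, so these members cannot be set beside it. These counts describe genes that were chosen with this comparison known. The number of genes called over the whole table was 710, and it was 385, 87, 122 and 110 without female CRE- replicates 1 to 4, and 237, 1310 and 404 without female LKO replicates 1, 2 and 4. In bulk liver RNA, fewer hepatocytes and less RNA of a gene per hepatocyte cannot be told apart.

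Ces3b, an esterase of the endoplasmic reticulum beside Ces3a on the chromosome, had the lowest log2 fold change of the members. It was at 92.6, 124, 134 and 102 CPM in female CRE- replicates 1 to 4 and at 6.29, 11.1, 17.7 and 12.99 CPM in female LKO replicates 1 to 4. The LKO values rested on 250, 445, 966 and 449 counts, so the gene was reduced but well above the detection limit in each liver. In LKO females its level was 9.41-fold lower (log2 fold change -3.23, SE 0.352). With any single mouse left out it was still past the threshold, at -3.48 to -2.996. Ces3b lies on chromosome 8 of GRCm39 from 105810365 to 105820561.

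Ces3a, its neighbour from 105775208 to 105788560, was at 33.1, 130.04, 137 and 123 CPM in female LKO replicates 1 to 4, against 353, 357, 486 and 255 CPM in female CRE- replicates 1 to 4. All 4 LKO females were below all CRE- females, and replicate 1 was far below the other LKO females. Ces3a had a log2 fold change of -1.78 (SE 0.554), and -1.45 without female LKO replicate 1. It was not past the threshold in edgeR's fit and was past it with DESeq2 and with replicate number as a block. The ratio of Ces3a to Ces3b in RPKM was 4.87 ± 0.946 (SD, n = 4) in female CRE- livers and 13.01 ± 4.16 (SD, n = 4) in female LKO livers. Each LKO female, at 7.99, 17.8, 11.8 and 14.4, had a higher ratio than any CRE- female, at 5.81, 4.38, 5.51 and 3.79. Ces3b was thus lower by more than its neighbour in every female LKO liver.

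Among the Ces1 genes, egasyn (Ces1e) was the one past the threshold in females. It was at 161, 278, 299.9 and 258 CPM in female CRE- replicates 1 to 4 and at 75.6, 109.9, 114 and 32.6 CPM in female LKO replicates 1 to 4. The groups did not overlap, and LKO replicate 4 had the lowest value. Egasyn was 2.999-fold lower in LKO females (log2 fold change -1.58, SE 0.336). It was no longer past the threshold without female CRE- replicates 2, 3 or 4, at -1.53, -1.485 and -1.55, or without female LKO replicate 1, at -1.52. The call was also lost with each sex fitted alone. In the fits with a mouse left out, Ces1e was between -1.78 and -1.31.

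Ces1f lies next to Ces1e and encodes a triacylglycerol hydrolase. It split the female LKO mice, at 100.1 and 63.7 CPM in replicates 1 and 4 and at 386 and 373 CPM in replicates 2 and 3. The female CRE- livers were at 336, 545, 656 and 487 CPM, so replicates 2 and 3 overlapped the controls and replicates 1 and 4 did not. Ces1f had a log2 fold change of -1.13 (SE 0.448), not past the threshold, and between -1.50 and -0.81 with a mouse left out.

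Ces2a, which hydrolyses drugs and other xenobiotic esters, was at 277, 348, 445 and 296 CPM in female CRE- replicates 1 to 4 and at 127, 247, 173 and 209 CPM in female LKO replicates 1 to 4. The highest LKO female was below the lowest CRE- female, though not without TMM, at 250.1 and 239 CPM. Ces2a was 1.81-fold lower in LKO females (log2 fold change -0.86, SE 0.220), close to the threshold. It was no longer past it without female CRE- replicates 2, 3 and 4, at -0.85, -0.70 and -0.89, and without female LKO replicates 1, 3 and 4, at -0.68, -0.81 and -0.90. The call was also lost with each sex fitted alone and with no filter. Ces2c was near 20 CPM or lower in the group means and varied too much to be placed, from 2.32 to 32.2 CPM in female LKO livers and from 8.45 to 30.2 CPM in female CRE- livers. Its log2 fold change was -0.71 (SE 0.684), and between -1.68 and -0.33 with a mouse left out.

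In females, Ces1c was at 4427, 4037, 4395 and 4244 CPM in female CRE- replicates 1 to 4 and at 2062, 3516, 3983 and 2694 CPM in female LKO replicates 1 to 4. The CRE- values lay close together, and the LKO values spread downwards from just below them. Ces1c had a log2 fold change of -0.48 (SE 0.212), and -0.31 without female LKO replicate 1. Ces1d, the hydrolase of stored triglyceride, ranged from 828 to 1455 CPM in CRE- and from 565 to 1216 CPM in LKO females, and its log2 fold change was -0.46 (SE 0.285). Without female LKO replicate 1 the value of Ces1d was -0.28, and without female LKO replicate 3 it was -0.68. Ces1g ranged from 410.3 to 637 CPM in CRE- and from 337 to 458 CPM in LKO females, a difference of -0.52 in log2 (SE 0.232). Ces1b was at 120 ± 8.03 CPM (SD, n = 4) and 113 ± 30.4 CPM (SD, n = 4), and its difference of -0.08 in log2 was 0.10 without female LKO replicate 1. None of these 4 was past the threshold in edgeR's fit, while Ces1c and Ces1g were under an unadjusted p of 0.05, and DESeq2 called none of them.

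In male LKO livers no member was past the threshold in edgeR's quasi-likelihood test, beside 0.454% of all genes tested, 0.221% higher and 0.233% lower. An unadjusted p under 0.05 was found for 3 members, Ces1b, Ces1g and Ces3b, beside 9.53% of all genes tested, and DESeq2 called 1, Ces1b, higher, beside 0.844% of all genes. On the library total without TMM the median of all genes tested was 0.0676 higher in this comparison. On that scale every male LKO liver was also above every male CRE- liver in Ces1c and Ces2a, and no share over all genes is given for it. The log2 fold change was below 0 in 4 members, beside 50.9% of all genes tested. The median was 0.20, and 0.26 without male LKO replicate 1, beside -0.01 over all genes tested. The median was 0.097 without male CRE- replicate 3, with 5 members below 0, and 0.33 without male CRE- replicate 2, with 3. In all, 76 of the genes tested were called. Leaving out male CRE- replicates 1 to 4 in turn gave 28, 32, 26 and 49 genes, and leaving out male LKO replicates 1 to 4 gave 43, 41, 39 and 40.

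Ces1b was at 137, 98.4, 91.3 and 96.5 CPM in male LKO replicates 1 to 4, against 52.1, 83.3, 42.9 and 54.5 CPM in male CRE- replicates 1 to 4. Every LKO male was above every CRE- male, and replicate 1 was the highest by far. All LKO males above all CRE- males was found in this 1 member, beside 3.57% of all genes tested. Ces1b had a log2 fold change of 0.86 (SE 0.227) with all mice and 0.70 without male LKO replicate 1. Ces1g, at 611 CPM in male LKO replicate 1 and between 358 and 381 CPM in the other LKO males, overlapped the CRE- males at 214 to 406 CPM. Its log2 fold change of 0.53 (SE 0.232) was 0.29 without replicate 1. Ces1c and Ces1d had log2 fold changes of 0.34 (SE 0.212) and 0.46 (SE 0.285), and 0.24 and 0.36 without replicate 1, with overlapping groups.

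Ces3b was at 49.3, 117, 145 and 173 CPM in male LKO replicates 1 to 4 and at 198, 252, 256 and 207 CPM in male CRE- replicates 1 to 4. All LKO males were below all CRE- males, with replicate 1 the lowest. This was found in 1 member, beside 2.92% of all genes tested. Ces3b had a log2 fold change of -0.91 (SE 0.324), not past the threshold, and -0.67 without replicate 1. Ces3a was at 115, 1409, 1386 and 1583 CPM in male LKO replicates 1 to 4 and between 1012 and 1229.9 CPM in male CRE- livers. Replicate 1 was below every CRE- male and every CRE- female, within the range of the LKO females, and the other 3 were above every CRE- male. Ces3a had a log2 fold change of -0.01 (SE 0.537) with all mice and 0.35 without replicate 1, and 0.03 without male CRE- replicate 4, so its sign turned with either liver. The ratio of Ces3a to Ces3b in RPKM was 3.53 in male LKO replicate 1 and 18.3, 14.6 and 13.9 in replicates 2 to 4, against 8.97, 6.78, 6.00 and 9.02 in male CRE- replicates 1 to 4. Apart from replicate 1, the LKO ratio was thus higher than in any control male.

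Ces1e was at 144, 237, 168 and 206 CPM in male LKO livers and between 172 and 350 CPM in male CRE- livers, with a log2 fold change of -0.45 (SE 0.329), and -0.35 without replicate 1. Ces1f had overlapping groups and a log2 fold change of 0.08 (SE 0.442), which was -0.02 and -0.08 without male CRE- replicate 3 and male LKO replicate 2. Without male LKO replicate 1 the value of Ces1f was 0.23. Ces2a was at 469, 389, 441 and 459.7 CPM in male LKO livers and between 268 and 419 CPM in male CRE- livers. Its groups overlapped, with a log2 fold change of 0.33 (SE 0.218), and 0.28 without male LKO replicate 1. Ces2c ranged from 3.98 to 39.8 CPM over the 8 males, with a log2 fold change of -0.55 (SE 0.682), which was 0.0045 without male CRE- replicate 2.

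The difference of the LKO effect between the sexes, female minus male, was below 0 in all 10 members, beside 47.7% of all genes tested. The median of this difference was -1.09, beside 0.04 over all genes tested. It rests on the same comparisons that chose the members and is a description too. No gene of the whole table was past the threshold in edgeR's quasi-likelihood test of the interaction, while 2672 genes had an unadjusted p under 0.05 and DESeq2 called 372. Of the members 8 were under an unadjusted p of 0.05, all but Ces1f and Ces2c, beside 16% of all genes tested, and DESeq2 called 2 lower, Ces2a and Ces3b, beside 0.605% of all genes. The difference was -2.32 (SE 0.462) for Ces3b, -1.76 (SE 0.766) for Ces3a and -1.19 (SE 0.310) for Ces2a. Without male LKO replicate 1 they were -2.55, -2.11 and -1.13, and Ces3b was then 1 of 14 genes past the threshold. The count over all genes was also 14 and 10 without female LKO replicates 3 and 2, and 2 without male CRE- replicate 2 or female LKO replicate 4. For Ces2c the difference of -0.15 (SE 0.962) turned positive without any 1 of 6 mice. Leaving out male CRE- replicate 3 gave 0.22, and it was 0.06 and 0.03 without male LKO replicates 2 and 4, 0.07 without female CRE- replicate 2, and 0.23 and 0.14 without female LKO replicates 1 and 3.

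Summed over the 10 members, the level was 6121 ± 1027 CPM (SD, n = 4) in male CRE-, 7182 ± 322 CPM (SD, n = 4) in male LKO, 7718 ± 652 CPM (SD, n = 4) in female CRE- and 5049 ± 1496 CPM (SD, n = 4) in female LKO livers. The female LKO livers were at 3381, 5950.07, 6622 and 4244 CPM, all below the female CRE- livers at 7025, 7925, 8523 and 7399 CPM. The male LKO livers, at 6772, 7542, 7130.01 and 7285 CPM, overlapped the male CRE- livers at 5161 to 7485 CPM. These relations depended on the scaling. On the library total without TMM, the female LKO sums ran from 3828 to 7501 CPM and overlapped the female CRE- sums at 5970 to 7701 CPM. On that total every male LKO liver, at 7167 to 7893 CPM, was above every male CRE- liver, at 5015 to 6759 CPM. Replicates 1 and 4 of the female LKO group had the lowest sums of the 16 livers on both scales. The members took 0.607% of all counts in male CRE-, 0.750% in male LKO, 0.689% in female CRE- and 0.544% in female LKO livers, as group means.

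The composition of the summed RPKM differed between the sexes. Ces1c made up 41.0% of it in male CRE- livers and 58.6% in female CRE- livers, as group means, and 43.7% and 63.5% in male and female LKO livers. Male LKO replicate 1 was at 52.81%, and the others of its group at 39.38% to 41.55%. Ces3a made up 17.9% in male CRE- but 4.33% in female CRE- livers, and 1.87% in female LKO livers. In male LKO livers its share was 1.57% in replicate 1 and 17.6% to 20.6% in the other 3. Ces3b held 2.38%, 1.04%, 0.889% and 0.143% in male CRE-, male LKO, female CRE- and female LKO livers. Ces1d stayed between 14.8% and 17.7% in the group means, a narrow range beside those of Ces1c and Ces3a.

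**Figure D2:**
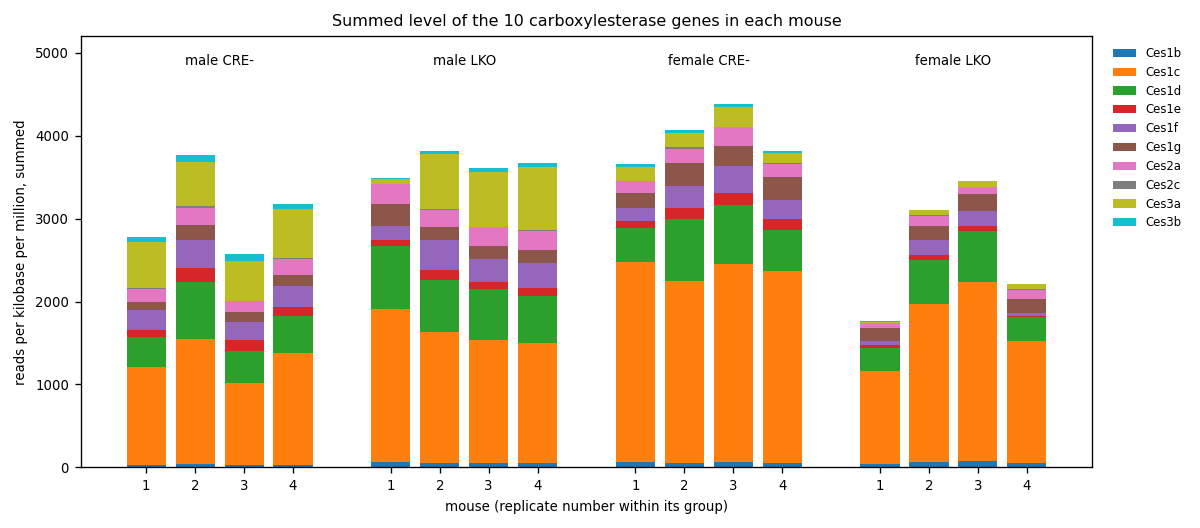
Stacked RPKM of the 10 members in each of the 16 livers, by group and replicate; each colour is a gene and the bar height is the sum. Ces1c takes 58.6% of the bar in female CRE- and 41.0% in male CRE- livers as group means, and the Ces3a segment is nearly absent from male LKO replicate 1, at 1.57%.

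Another 10 carboxylesterase genes are annotated in the mouse and lie outside the members. They took little of the family's counts, since the members held 94.6% to 97.9% of them in the 16 libraries. Of these 10, 8 had enough counts to be tested. Ces2e, a relative of Ces2a, was at 236, 348, 366 and 348 CPM in female CRE- and at 85.7, 163, 162 and 104 CPM in female LKO replicates 1 to 4, with no overlap. Its log2 fold change was -1.33 (SE 0.353), past the threshold (edgeR adjusted p = 0.0443). That call was lost without female CRE- replicates 1 to 4 in turn (0.0504, 0.123, 0.112 and 0.0921) and without female LKO replicates 1, 3 and 4 (0.129, 0.0535 and 0.0882). The other 7 were not past the threshold in females, and 6 of the 8 had a log2 fold change below 0, beside 46.9% of all genes tested. The median of the 8 was -0.31. In males edgeR's test called none of the 8, 1 was under an unadjusted p of 0.05, and DESeq2 called none. Ces2g, at 62.8 to 74.5 CPM in male LKO and 48.0 to 57.2 CPM in male CRE- livers, was higher in every LKO male, with a log2 fold change of 0.41 (SE 0.173). Ces1a, Ces1h, Ces2b, Ces2d-ps, Ces2h and Ces4a had group means of at most 1.24 CPM, and Ces2f and Ces5a had at most 7 and 2 counts in any library.

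Some members varied together across livers, given here as correlations of log2 CPM over the 16 libraries, which share group differences and depth. Ces1e and Ces1f, neighbours on the chromosome, had r of 0.908 (Pearson) and rho of 0.779 (Spearman), and r was 0.865 for the deviations from group means. Ces3a and Ces3b had r of 0.898, rho of 0.785 and 0.9 within groups. Ces1b and Ces1c had r of 0.854, rho of 0.844 and 0.92 within groups. Leaving out any library kept r over the libraries between 0.806 and 0.923, 0.854 and 0.914, and 0.807 and 0.881. The values within groups were not repeated with a library left out. Ces1c and Ces1g, with r of 0.804 over all libraries, had 0.516 within groups. Ces1b and Ces3a had r of -0.451 and rho of -0.491 over all libraries and -0.0412 within groups. Ces2a and Ces3a had r of 0.719 and rho of 0.55 over all libraries, 0.269 within groups, and r of 0.874 without male LKO replicate 1. With all mice, the pairs of Ces1e with Ces1f, Ces3a with Ces3b and Ces1b with Ces1c thus had r of at least 0.865 within groups, while Ces1b and Ces3a were opposed between groups alone. For Ces3a and Ces3b, replicate 1 of each LKO group was the lowest of its group in both genes, and far below the others in Ces3a. In male CRE- livers Ces3b was highest in replicate 3, where Ces3a was lowest. How far their r within groups rests on single livers was not tested.

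Outside the family, the genes whose log2 CPM was most like that of Ces3b over the 16 libraries were Trhde, a peptidase that degrades thyrotropin-releasing hormone (Pearson r 0.950), Il1rap, a subunit of the interleukin-1 receptor (0.937), Gm32840 (0.916), Nudt7, a peroxisomal coenzyme A diphosphatase (0.915), and Ghr, the growth hormone receptor (0.915). Trhde averaged 2.28 CPM in male CRE-, 0.789 in male LKO and 1.17 in female CRE- livers and had no counts in the 4 female LKO livers. A floor of 3 counts per library was worth 0.0549 to 0.0868 CPM there, so Trhde was at least 13.5-fold lower than in female CRE- livers. Such floors cover counting error only. Ghr averaged 466, 352, 437 and 184.5 CPM in male CRE-, male LKO, female CRE- and female LKO livers, and Nudt7 338, 233, 148 and 46.0 CPM. Il1rap averaged 117, 123, 90.9 and 41.8 CPM, and Gm32840 4.45, 1.72, 3.79 and 0.270 CPM in the same order. Each of the 5 had its lowest group mean in female LKO livers, as Ces3b had, which follows largely from choosing them by likeness over the same libraries. For the deviations from group means, r with Ces3b was 0.641 for Trhde, 0.734 for Il1rap, 0.355 for Gm32840, 0.804 for Nudt7 and 0.801 for Ghr. Most like Ces1c were Hacl1, a peroxisomal lyase (0.898), Rdh16f2 (0.887), Ppp1r8 (0.886), Mpc1, a subunit of the mitochondrial pyruvate carrier (0.885), and Gm10145 (0.884). Hacl1 averaged 225, 318, 688 and 331 CPM in male CRE-, male LKO, female CRE- and female LKO livers. Its highest mean was in female CRE- livers, as that of Ces1c was, which again follows largely from the choice by likeness. Within groups its r with Ces1c was 0.669.

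The members sit in a pair of blocks on chromosome 8 of GRCm39. The Ces1 block runs from 93746842 to 94262507, a span of 516 kb, holds 9 family genes with Ces5a, and carries the 6 Ces1 members on the minus strand. The block of Ces2, Ces3 and Ces4 runs from 105460635 to 105876741, a span of 416.11 kb, holds 11 genes on the plus strand, and carries 4 members. Ces1e (93927846 to 93956233) and Ces1f (93982864 to 94006394) are neighbours, as are Ces3a and Ces3b. Neighbours did not always have like values in females. Ces1d, which borders Ces1e on the other side, had a log2 fold change of -0.46, beside -1.58 for Ces1e, -1.13 for Ces1f and -0.52 for Ces1g. In the other block Ces2a was at -0.86 and Ces3b at -3.23, with Ces2g between them in position at -0.33.

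The coding sequences of the members show how closely each pair is related. Ces3a and Ces3b were identical at 95.3% of aligned positions (1635 of 1716). Ces1b and Ces1c shared 90.9%, the highest of the 15 pairs among Ces1 members, which began at 72.1% with a median of 77.7%. Ces2a and Ces2c shared 82.6%. Between subfamilies identity was 58.9% to 61.3% for Ces1 with Ces3, 59.3% to 63.7% for Ces1 with Ces2, and 60% to 61.9% for Ces2 with Ces3. Reads that map to more than 1 place were not counted, which bears on like genes. Of the stretches of 150 bases (1 read length) in a transcript, 48.71% of those of Ces2c were also found in another gene, against 4.4% for Ces3b, 2.36% for Ces3a, 4.01% for Ces2a and 0 for the Ces1 members. The counts of Ces2c are thus those most open to loss of shared reads, while those of Ces3a and Ces3b rest mainly on sequence that tells them apart.

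Ces3a and Ces3b, a pair that varied together, share sequence just before their starts. In the window from 250 bases before to 50 bases from the start given by the counts table they were identical at 68.0% of positions, beside 66.3% for Ces2a and Ces2c and 62.7% for Ces1b and Ces1c. Ces1e and Ces1f, which varied together as well, were identical at 48.7% of positions there. The windows of all 10 members were searched on both strands for short motifs, and the shares given are of the windows of 16703 tested genes. CCAAT, the CCAAT box, was in 8 members, all but Ces1d and Ces1e, and in 37.48% of all windows. GTTAAT was in Ces3a and Ces3b alone among the members, and in 5.7% of all windows. The stretches of Ces3a and Ces3b are shown because they hold both motifs, in the same order, in the gene with the lowest female value and in its neighbour, and the others because they hold the CCAAT box before the start without GTTAAT. In Ces1b the box lies at 10 bases past the start and is not shown. Below are 30 bases of each, 5′ to 3′ on the strand of the gene, from GRCm39, with CCAAT (or ATTGG, the same box on the other strand) and GTTAAT in capitals: Ces3a from chr8:105775153-105775182 (plus), Ces3b from chr8:105810309-105810338 (plus), Ces2a from chr8:105460572-105460601 (plus), Ces2c from chr8:105573578-105573607 (plus), Ces1c from chr8:93857965-93857994 (minus), Ces1f from chr8:94006423-94006452 (minus) and Ces1g from chr8:94063871-94063900 (minus).
Ces3a: tccaaCCAATcagggcagaccaaGTTAATt
Ces3b: tccaaCCAATcgggcagaccaaGTTAATtt
Ces2a: cccatCCAATcaaatgtccacacctacacc
Ces2c: tggccATTGGctcctatcacttgtgactaa
Ces1c: tgctaATTGGtctagaggagggtccacagc
Ces1f: gtgtaATTGGgctctgtgggcaggactcct
Ces1g: tgcaaATTGGcttagtgggcaggatttcag

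The CCAAT box nearest to the start began at -50 in Ces3a and -51 in Ces3b relative to the gene start in the counts table, at -58 in Ces2a, -117 in Ces2c, -78 in Ces1c, -53 in Ces1f and -58 in Ces1g, with a further box at -231 in Ces2a and at -179 in Ces1g, and GTTAAT at -32 in Ces3a and -34 in Ces3b. In the GENCODE annotation Ces3b starts at 105810253 and Ces1g at 94063953, so that their stretches lie inside that transcript and not before it. TATAAA was in Ces1f, Ces1g and Ces3b and in 10.53% of all windows. TTGCNNAA, letters of C/EBP sites, was in Ces1b, Ces1c, Ces1d and Ces2a and in 9.99% of all windows. TGACGTCA, the full cyclic AMP response element, was in 0 of the 10 members and in 2.54% of all windows. Its part TGACG was in Ces2c alone, and in 25.41%. TTCNNNGAA, letters of STAT5 sites, was in 0 members and 7.8% of all windows, CAAAGTCCA, letters of HNF4 sites, in 0 members and 0.55%, and TGACNNNGC, letters of NRF2 sites, in 0 members and 12.98%. A direct repeat read by the receptors CAR and PXR was in none of the 16703 windows. A match describes letters in the window and is not shown to be a bound site, and no match says only that the letters are not in that window.

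Gcgr, the gene targeted in the LKO mice, was at 48.8, 132, 119 and 93.6 CPM in female LKO replicates 1 to 4 and at 162, 208, 201 and 179.99 CPM in female CRE- replicates 1 to 4, with no overlap. The female log2 fold change was -0.93 (SE 0.247). With all mice it was past the threshold (edgeR adjusted p = 0.0443), and that was lost without female CRE- replicates 1 to 4 in turn (0.0573, 0.136, 0.112 and 0.0907) and without female LKO replicates 1, 3 and 4 (0.0802, 0.0519 and 0.0841). The call was also lost in 3 of 6 fits with other tools, filters or models. In males the groups overlapped, at 117 to 160.4 CPM in LKO and 127 to 193 CPM in CRE- livers, with a log2 fold change of -0.37 (SE 0.245). The count takes in exons outside the deleted ones, so it is no measure of the deletion itself. Female LKO replicate 1 had the lowest Gcgr of the 16 livers and also the lowest Ces3a and Ces3b.

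Hepatocyte identity genes (11 of the 12 listed were in the table, and Alb, Apoa1 and Hpx were the most abundant, at means of 70690, 6627 and 6167 CPM) summed to 147350 ± 13182 CPM (SD, n = 4) in female CRE- and to 72634, 117070, 111900 and 103390 CPM in female LKO replicates 1 to 4. None of the 11 was past the threshold in edgeR's test in females, 7 were under an unadjusted p of 0.05, DESeq2 called 3 lower, and 10 were below 0, with a median of -0.69. Over all genes in this comparison, 46.9% were below 0, 21.4% were under an unadjusted p of 0.05 in edgeR's test, and DESeq2 called 4.17% lower and 6.07% higher. None was at 0 in any library. In male CRE- and male LKO livers the sums were 111920 ± 15666 and 95656 ± 12271 CPM (SD, n = 4). All female LKO livers were thus below the lowest female CRE- liver, at 135260 CPM, and replicate 1 was the lowest. Without that replicate Ces3b had a log2 fold change of -2.996, Ces1e -1.52 and Ces2a -0.68. In control livers the lowest female sum was above the highest male sum, at 121610 CPM. Of the 11 genes 9 were above 0 in females, with a median of 0.42, while 50.6% of all genes tested were below 0. There edgeR's test called 0, 1 was under an unadjusted p of 0.05 and DESeq2 called 1 higher. The part of hepatocyte content in the members' values, those of Ces1b, Ces1c and Ces1g between control sexes included, was not tested.

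Macrophage markers (9 genes, Cd5l, Lyz2 and Clec4f the most abundant at 289, 251 and 245.0 CPM, none at 0) summed to 882, 645, 716 and 1216 CPM in female CRE- and to 4004, 1178, 2521 and 1539 CPM in female LKO replicates 1 to 4. The highest sum stood in LKO replicate 1, where the members' sum was lowest. All 9 were above 0 and under an unadjusted p of 0.05, with a median log2 fold change of 1.4, and DESeq2 called 7 higher. In edgeR's test 1 was past the threshold, Adgre1, the F4/80 antigen, at 2.15 (edgeR adjusted p = 0.0451). That was lost without female CRE- replicates 1 to 4 in turn (0.0832, 0.139, 0.121 and 0.0919) and without female LKO replicates 1 and 3 (0.189 and 0.0561), and without LKO replicate 1 the log2 fold change was 1.21. In male CRE- and male LKO livers the sums were 873 ± 576 and 915 ± 311 CPM (SD, n = 4). Neutrophil markers (7 genes, 6 tested, S100a9, S100a8 and Ngp the most abundant at 32.3, 20.9 and 11.4 CPM, Ly6g and Camp at 0 in some libraries) summed to 17.1 ± 6.92 CPM in female CRE- and to 93.8, 31.04, 53.9 and 591 CPM in female LKO replicates 1 to 4. In males the difference ran the other way, with sums of 65.6 ± 72.6 CPM in CRE- and 10.7 ± 4.47 CPM in LKO livers (SD, n = 4). All 6 genes tested were below 0 in males, beside 50.9% of all genes tested, with a median log2 fold change of -2.53. An unadjusted p under 0.05 was found for 5 neutrophil genes, edgeR's test called 0 and DESeq2 called 3 lower. Their part in the members' values was not tested.

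Mmp8 and Ngp of the neutrophil list were higher in female LKO livers, with log2 fold changes of 3.50 and 4.68 (edgeR adjusted p of 0.0266 and 0.0483), and 2.66 and 2.79 without female LKO replicate 4. Cdh5 and Vwf of the 7 endothelial genes (Stab2, Clec4g and Kdr most abundant at 58.8, 56.3 and 46.9 CPM) had 0.79 and 1.15 (0.0249 and 0.0358), and that list summed to 252 ± 26.9 and 316 ± 63.7 CPM in female CRE- and LKO livers. Of 6 proliferation genes (Mki67, Top2a and Cdk1 most abundant at 7.07, 5.30 and 2.18 CPM) 5 were higher, summed from 10.4 ± 5.45 to 40.7 ± 28.0 CPM. Their log2 fold changes were 1.63 for Birc5, 2.595 for Ccnb1, 1.72 for Cdk1, 2.45 for Top2a (1.76 without female LKO replicate 1 and 3.04 without female CRE- replicate 4) and 2.15 for Aurkb, which is named after its value was seen and was not followed with mice left out. The calls of the other 8 genes were each lost without female CRE- replicate 2 or 3 (edgeR adjusted p between 0.0672 and 0.155) and without female LKO replicate 1 (0.056 to 0.139). Those of Mmp8, Ngp, Vwf, Birc5, Cdk1 and Top2a were also lost without female CRE- replicate 1 (0.0504 to 0.0809), those of Mmp8, Ngp, Vwf, Top2a, Cdh5 and Ccnb1 without replicate 4 (0.0523 to 0.0979), those of Ngp and Top2a without female LKO replicate 3 (0.0519 and 0.0528), and those of Mmp8, Ngp, Vwf and Top2a without replicate 4 (0.0529 to 0.147). DESeq2 called 7 neutrophil, 3 endothelial and 6 proliferation genes higher in females. In control livers, female against male, Krt19 of 6 cholangiocyte genes (Spp1, Sox9 and Epcam most abundant at 68.0, 6.75 and 2.84 CPM, Cftr at 0 in some) was higher, with 1.66 (edgeR adjusted p = 0.0300), and lost the call without any single mouse of male CRE- replicates 1 to 4 or female CRE- replicates 1 to 4 (0.0562 to 0.0989). Cidec of 8 adipocyte genes (Cidec, Pparg and Cfd most abundant at 24.1, 21.9 and 16.01 CPM, 5 of the 8 at 0 in some) was lower, with -4.62 (edgeR adjusted p = 0.000167). In the lists of 7 T and NK cell genes (Nkg7, Cd3g and Cd4 at 2.598, 2.47 and 2.43 CPM), 7 B and plasma cell genes (Ighm, Jchain and Cd79b at 172, 32.7 and 6.25 CPM) and 8 stellate cell genes (Dcn, Reln and Col3a1 at 187, 60.6 and 54.8 CPM), none was past the threshold of edgeR's test or called by DESeq2 in either sex or between control sexes. An unadjusted p under 0.05 was found in females for 1 T and NK cell gene, 1 B and plasma cell gene and 0 stellate cell genes, and for 0 in males and between control sexes.

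The pathways around the carboxylesterases give the setting of these values. Of 23 other esterases and lipid hydrolases 1 was higher and 3 were lower in female LKO livers by edgeR's test, 2 were higher and 6 lower by DESeq2, and the median log2 fold change was -0.27. Pnpla3, a triglyceride hydrolase and acyltransferase of lipid droplets, was at 52.5 ± 22.6 CPM in CRE- and 7.73 ± 3.57 CPM in LKO females, and it fell by 2.77 on the log2 scale (SE 0.395, edgeR adjusted p = 0.0032), past the threshold with any single mouse left out. Aadac, an arylacetamide deacetylase that shares drug substrates with Ces2a, was at -1.11 (SE 0.276, 0.0366), Bphl, a prodrug-activating hydrolase, at -1.15 (SE 0.307, 0.0460), and Lpl, lipoprotein lipase, at 2.57 (SE 0.692, 0.0474). The calls of Aadac, Bphl and Lpl were lost without female CRE- replicates 1 to 4 in turn and female LKO replicates 1 and 4 (edgeR adjusted p of 0.0504 to 0.108 for Aadac, 0.0504 to 0.136 for Bphl and 0.0679 to 0.153 for Lpl), and that of Bphl also without female LKO replicate 3 (0.0554). In males edgeR's test called none of the 23, with 3 under an unadjusted p of 0.05 and 1 called lower by DESeq2. Between control sexes it called none, with 4 under an unadjusted p of 0.05 and 1 called higher by DESeq2.

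All 11 genes of VLDL assembly and secretion, the route fed by Ces1d, were below 0 in female LKO livers, beside 46.9% of all genes tested. Their median was -0.44, and 1 was past the threshold of edgeR's test and 2 by DESeq2. The gene past it in edgeR was Dgat2, which makes triglyceride, at -0.96 (SE 0.259, edgeR adjusted p = 0.0484), lost without female CRE- replicates 1 to 4 in turn (0.0512, 0.117, 0.115 and 0.122) and female LKO replicates 1, 3 and 4 (0.139, 0.0825 and 0.0638). Other tools, filters or models lost the call of Dgat2 in 3 of 6 fits. In males the median was -0.09 and edgeR's test called none of the 11, with 0 under an unadjusted p of 0.05 and 0 by DESeq2. In control livers Tm6sf2, a factor in VLDL lipidation, was higher in females, at 1.09 (SE 0.238, edgeR adjusted p = 0.0391). That was lost without male CRE- replicates 1, 3 and 4 (0.139, 0.146 and 0.0720) and female CRE- replicates 1 to 4 in turn (0.0720, 0.102, 0.0627 and 0.200).

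Among 17 nuclear receptors and liver transcription factors, Esr1, the oestrogen receptor, was lower in both LKO groups, and DESeq2 called 3 of the 17 lower in females and 2 lower and 1 higher in males. Esr1 was at 49.3 and 19.8 CPM in female CRE- and LKO livers as means, a log2 fold change of -1.32 (edgeR adjusted p = 0.0173), and 0.0627 without female CRE- replicate 2. In males it was at 27.5 and 10.9 CPM, with -1.33 (0.0360), and from 0.0639 to 0.0967 without male CRE- replicates 1 to 3 or male LKO replicates 2 to 4. The xenobiotic receptors Nr1i2 and Nr1i3 were at -0.04 and -0.34 in females, not past the threshold. None of 17 genes known as targets of these receptors was past the threshold of edgeR's test in either sex, with 4 under an unadjusted p of 0.05 in each, 0 by DESeq2 and medians of -0.30 in females and 0.31 in males. Over the alternatives, mice left out included, these medians ran from -0.598 to -0.233 in females and from -0.0983 to 0.558 in males. Between control sexes edgeR's test called 0 of these 17, 8 were under an unadjusted p of 0.05, DESeq2 called 3 higher in females, and the median was 0.41. Of 10 NRF2 target genes Osgin1 was higher in both sexes by edgeR's test, and DESeq2 called 2 genes higher in each. Osgin1 was at 1.25 in females and 1.86 in males (edgeR adjusted p of 0.0308 and 0.0093). The female call was lost without female CRE- replicates 2 to 4 and female LKO replicates 1 and 3 (0.0557 to 0.103), and the male call without male CRE- replicate 3 (0.0558).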

How the data were processed

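Poly-A RNA of 16 mouse livers (4 groups of 4) was sequenced in paired reads of 150 bases. The authors aligned them to GRCm39 with STAR 2.7.1a and deposited 1 table with the count of reads on each gene from featureCounts (Subread 2.0.6), with no normalization. Its header gives strand setting 2 and counts each read, not each pair, with reads at several places left out; the labels do not state whether strands were marked. All 16 columns were matched to a mouse, with 0 left unmapped. Groups were taken from the labels.

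With R 4.3.3 and edgeR 4.0.16 (limma 3.58.1), genes passing filterByExpr with a minimum count of 10 were scaled by TMM and fitted by the quasi-likelihood test in 1 model of 4 groups, with Benjamini-Hochberg adjustment over the 16742 genes tested and a threshold of 0.05. These genes held at least 99.8734% of the counts of each library. The contrasts were LKO against CRE- in each sex, female against male CRE-, and the interaction. RPKM used the length column of the table. Likeness was measured on log2 CPM with a prior count of 2. Alternatives were DESeq2 1.42.0, RLE factors, no filter, at least 10 counts in every library, replicate number as a block, each sex fitted alone, each mouse left out, and CPM without TMM. The steps were tested on simulated data.

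The members and all gene lists were chosen with earlier results of these data known. The genes named are the 10 members, Gcgr, the genes of each list past the threshold in a contrast (up to 4 by smallest p), the 3 most abundant genes of a marker list, and the 5 genes most like Ces3b and Ces1c by Pearson r over 16 libraries. Coding sequences, transcripts and windows at gene starts were read from GRCm39 with the GENCODE annotation by Python 3.11.15, pandas 2.3.3 and biopython 1.88, with figures by matplotlib 3.10.9. Windows were taken at the starts in the counts table, from which those of GENCODE differ by 0 to 116 bases for the members. A comparison of protein sequences was planned and not run, and coding sequences were compared in its place.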

Additional observations from a re-analysis of the deposited data

Results flagged for a closer look

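In 48 groups of 4 mice (the members, Gcgr and the summed level, in each group), the highest and the lowest mouse were compared with the rest by Dixon's Q, the gap to the nearest mouse over the whole range, against its critical value for 4 samples. Chance alone picks about 1 in 20 groups, and 5 of the 48 passed. In male LKO replicate 1, Ces1b was the highest of its group at 137.1 CPM, with the others at 91.33 to 98.4 CPM (Q 0.845). In the same liver Ces1g was the highest at 610.7 CPM, with the others at 358.3 to 381.1 CPM (Q 0.91), and Ces3a the lowest at 114.7 CPM, with the others at 1386 to 1583 CPM (Q 0.866). In female LKO replicate 1, Ces3a was the lowest at 33.05 CPM, with the others at 123.3 to 137.3 CPM (Q 0.866). In male CRE- replicate 3, Gcgr was the lowest at 127.3 CPM, with the others at 189.6 to 192.9 CPM (Q 0.949). No cause was tested.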

How the results depend on the processing

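Under the other tools, filters and models, with no mouse left out, 55 of 60 member values kept their direction and their side of the threshold in females, 59 of 60 in males, 45 of 50 between control sexes and 48 of 50 for the difference between the sexes, and none changed sign. On the library total without TMM, added for single members after seeing the data and not fitted, the log2 ratio of group means turned to 0.18 for Ces1b in females, 0.000206 for Ces3a in males and -0.0867 for Ces2c between control sexes. In females Ces1e and Ces2a lost the call with each sex fitted alone and Ces2a with no filter, and Ces3a gained it with DESeq2 and with replicate number as a block. DESeq2 also added Ces1b in males, Ces1c, Ces1g and Ces3a between control sexes, and Ces2a and Ces3b for the difference. Ces1b lost the call between control sexes with at least 10 counts in every library and with the block. The number of genes called in females was 1795 with DESeq2, 1244 with replicate number as a block and 119 with each sex fitted alone, which leaves fewer samples. In males it was 336 with DESeq2, between control sexes 499 with DESeq2 and 78 with at least 10 counts in every library, and for the difference between the sexes 372 with DESeq2 and 12 with no filter. With each mouse left out it was 87 to 1310 in females, 26 to 49 in males, 68 to 149 between control sexes and 0 to 14 for the difference. The summed level of the members in female CRE- livers was 6893 CPM without TMM, against 7718 with it. With each mouse of a group left out, an alternative chosen after seeing the data, that level was 5666 to 6441 CPM in male CRE-, 7063 to 7319 in male LKO, 7450 to 7949 in female CRE- and 4525 to 5606 in female LKO livers. The cause was not tested.

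Replicate numbers were not treated as pairs, since the labels do not pair mice between groups. Of 24 pairs of libraries of the same number, 11 had a correlation above 0.1, from -0.25 to 0.332, and 10 were best matched by their own number. With the number as a block the female log2 fold change of Ces3a was -1.98.

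Other changes of sign came with 1 mouse left out. The ranges were -0.23 to 0.10 for Ces1b in females, -0.083 to 0.23 for Ces1f, -0.91 to 0.0045 for Ces2c and -0.24 to 0.35 for Ces3a in males, and -0.20 to 0.14 for Ces1e, -0.24 to 0.066 for Ces1f, -0.19 to 0.069 for Ces2a, -0.30 to 0.62 for Ces2c and -0.041 to 0.17 for Gcgr between control sexes. For the difference between the sexes it was -1.12 to 0.23 for Ces2c. The cause was not tested.

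Ces2c, the member with the lowest mean level over the livers, had 92 to 1786 counts a library. With 4 mice a group, a value past the threshold in a sex and not in the other is not shown to differ between them.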

Other observations

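In male LKO replicate 1 the steroid dehydrogenase gene Hsd3b5 was at 0.103 CPM and the transporter gene Slco1a1 at 0.257 CPM, against 47.5 to 119 CPM and 329.99 to 422 CPM in the other male LKO livers. The female-biased genes Cux2 and Acot3 were at 60.4 and 214 CPM in it, while Cyp3a41a, at 682 to 1012 CPM in female CRE- livers, was at 0.772 CPM. Among the members, this liver had Ces3a at 115 CPM and Ces1b at 137 CPM, just above the female CRE- livers for Ces1b (113 to 131 CPM) and below them for Ces3a (255 to 486 CPM). No cause was tested.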
